A study of Mus musculus with 6 samples.

Results

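The 10 genes described here encode mast cell proteases, parts of the high-affinity IgE receptor and an enzyme of prostaglandin synthesis. They are Cpa3, Mcpt4, Cma1, Tpsb2, Tpsg1, Mcpt1, Mcpt2, Fcer1a, Ms4a2 and Hpgds, taken by name and matched to array probes by accession. They are 10 of the 18342 named genes on the arrays, and 11 of the 41145 probes measure them, since Cma1 has 2 probes. The set was selected on the high values of Cpa3 and Mcpt4 in tumours of Fah mice, so differences between tumour and the other groups are given below as a description, with no test.

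RNA of 6 mouse liver samples was measured, each on 1 single-colour Agilent array. All samples came from mice on a BL6 background that carry the deletion Fah_del_tm1Mgo, and so lack the enzyme (fumarylacetoacetate hydrolase) that completes the breakdown of tyrosine. The groups were tumour of Fah mice (n = 2), inflamed liver of FCR mice (n = 2), healthy liver of a Fah mouse (n = 1) and normal liver of an FCR mouse (n = 1). FCR mice carry, beside the Fah deletion, the deletions Rag2_del_tm1Fwa and common gamma chain del tm1Wjl. Rag2 is needed to assemble antigen receptors and the common gamma chain, Il2rg, is part of several cytokine receptors, so that such mice lack mature T cells, B cells and NK cells. NTBC, a drug, inhibits that breakdown further upstream and so protects mice without Fah. The healthy and the normal liver came from mice kept on NTBC at 7.5 μg/ml in their drinking water (100% NTBC). Among tumours and among inflamed livers alike, replicate 1 carries the label off and replicate 2 the label 2xoff/on, both of which stand for 2 courses of NTBC withdrawal. The labels do not settle in which phase each liver was taken, and give no age or sex. They do not say whether the 2 arrays of a group stand for different animals, so p-values measure only the spread between these samples. Slide 1 held the off arrays and the arrays of continuous NTBC, and slide 2 held both 2xoff/on arrays. Slide and regimen therefore cannot be told apart within the tumour or the inflamed group, and neither can genotype and tumour tissue between those groups.

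Values are log2 of the processed signal relative to the 75th percentile of the same array, so that 0 is the level of a probe brighter than 75% of the probes. That percentile was 812 and 888.7 units of signal on the tumour arrays, 363 and 723.9 on the inflamed FCR arrays, 363.2 on the healthy Fah array and 373.7 on the normal FCR array. Between 60.5% and 74.5% of the spots on an array were well above background by the scanner software's own test. Il2rg exceeded background on the 3 Fah arrays only, at -1.94 and -1.98 in tumour and at -3.40 in healthy Fah liver. Rag2 stayed near background throughout. Fah had signal on all 6 arrays, but the position of its probe and of the deletion were not compared, so that this checks nothing. The number of arrays limits the precision of everything below.

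Mast cells are tissue-resident immune cells that store proteases, histamine and heparin in granules. They release these when IgE bound to the receptor FcεRI is crosslinked by antigen, or through receptors for other ligands. In mice, mast cells of connective tissue hold the chymases Mcpt4 and Cma1, the carboxypeptidase Cpa3 and the tryptase Tpsb2, and depend mainly on Kit ligand. Mast cells of mucosa hold the chymases Mcpt1 and Mcpt2, and their expansion depends largely on T cell cytokines. The normal liver holds few mast cells, mostly along portal tracts. Cpa3, Fcer1a and Ms4a2 are also expressed by basophils, which are blood cells that share the IgE receptor.

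The upstream sequences of 4 of the proteases are shown because the 2 chymases Mcpt4 and Mcpt1, which mark different kinds of mast cell, lie near each other on chromosome 14 and behaved differently on these arrays. Each is the 250 bases before the start of the gene in RefSeq's table for GRCm38.p6, written 5′ to 3′ on the strand of the gene. Capitals mark matches to AGATAA and to its variant TGATAA on the strand shown, or to TTATCT and the variant TTATCA on the opposite strand. These letters are forms of the core bound by GATA factors, among them Gata2, which mast cells need. Other forms of that core were not searched and are not marked. Cpa3 is at chr3:20242182-20242431 (minus strand), Mcpt4 at chr14:56062311-56062560 (minus strand), Cma1 at chr14:55944676-55944925 (minus strand) and Mcpt1 at chr14:56017714-56017963 (plus strand).
Cpa3: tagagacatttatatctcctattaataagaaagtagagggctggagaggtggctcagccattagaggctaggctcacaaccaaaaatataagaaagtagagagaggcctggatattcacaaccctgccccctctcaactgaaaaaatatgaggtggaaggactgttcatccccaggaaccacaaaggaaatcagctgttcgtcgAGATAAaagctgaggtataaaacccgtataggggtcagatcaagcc
Mcpt4: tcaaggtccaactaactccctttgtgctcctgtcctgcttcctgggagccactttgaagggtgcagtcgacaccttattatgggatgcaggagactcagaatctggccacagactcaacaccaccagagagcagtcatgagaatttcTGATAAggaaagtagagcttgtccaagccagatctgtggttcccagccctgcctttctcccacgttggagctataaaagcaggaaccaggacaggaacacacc
Cma1: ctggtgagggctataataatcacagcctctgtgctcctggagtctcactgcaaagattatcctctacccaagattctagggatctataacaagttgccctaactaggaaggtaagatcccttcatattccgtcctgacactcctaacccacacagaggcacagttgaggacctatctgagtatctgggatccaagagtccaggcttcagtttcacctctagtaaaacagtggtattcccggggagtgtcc
Mcpt1: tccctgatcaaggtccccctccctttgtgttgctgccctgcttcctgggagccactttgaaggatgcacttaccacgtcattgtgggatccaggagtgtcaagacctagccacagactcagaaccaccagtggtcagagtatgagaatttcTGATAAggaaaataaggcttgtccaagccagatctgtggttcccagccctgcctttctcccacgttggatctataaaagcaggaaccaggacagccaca

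Cpa3 holds AGATAA from 46 to 41 bases before the start, Mcpt4 holds TGATAA from 103 to 98 and Mcpt1 holds TGATAA from 99 to 94. None of the letters searched stand in the window of Cma1, which was not searched for other forms of the core. In a global alignment the windows of Mcpt4 and Mcpt1 were identical at 209 of 242 aligned bases (86.4%), gaps left out, and both hold the match. Mcpt4 and Cma1, the pair that share the connective tissue type, were identical at 135 of 216 aligned bases (62.5%). A promoter entry was found for 8 of the 10 genes, all but Tpsb2 and Mcpt2, and the first listed start of each was read. The GATA letters were present in 6 of these 8 and in 16.6% of all 32851 promoters of the table. The letters CANGTG, which read CACNTG on the opposite strand and which some basic helix-loop-helix factors bind, were present in 2 of the 8, Fcer1a and Hpgds, and in 39.5% of all promoters. A match describes the letters only.

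**Figure D1:**
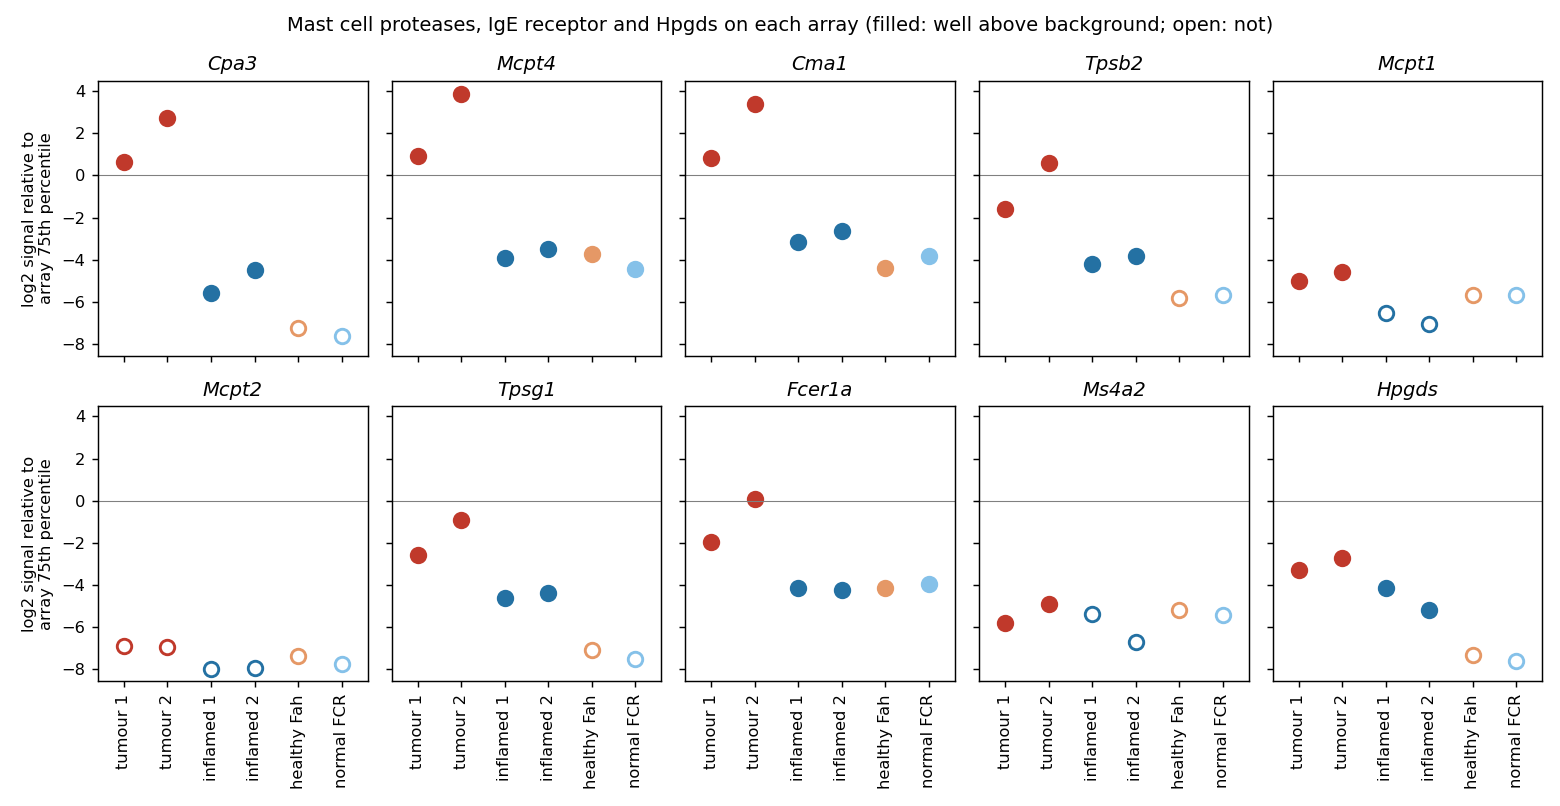
Log2 signal of each of the 10 genes relative to the 75th percentile of the array (y axis), on the 2 tumour, 2 inflamed FCR, 1 healthy Fah and 1 normal FCR arrays (x axis). Each point is 1 array, filled where the probe was well above background and open where it was not. Cpa3, Mcpt4, Cma1, Tpsb2, Tpsg1 and Fcer1a stand highest on both tumour arrays, with replicate 2 above replicate 1, while Mcpt2 is open on all 6 arrays.

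The carboxypeptidase Cpa3, which trims peptides and venom toxins in mast cell granules, had 0.62 and 2.72 in tumour replicates 1 and 2, -5.60 and -4.50 in inflamed FCR liver, -7.26 in healthy Fah and -7.62 in normal FCR liver. Both tumour arrays were far above the other 4, both inflamed arrays lay between, and the 2 arrays of continuous NTBC were not well above background. The mean was 1.67 ± 1.48 in tumour and -5.05 ± 0.78 in inflamed FCR liver (SD, n = 2 each), a difference of 6.72 on the log2 scale, or 105.3-fold. Against healthy Fah liver, tumour was at least 111-fold higher. Where a gene was not well above background in the dimmer group, such a lower bound is given. It sets the mean of the brighter group against a floor, which on each array of the dimmer group is the lowest signal among probes well above background, or the gene's own signal where that is higher.

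The chymase Mcpt4, a chymotrypsin-like protease that mast cells of connective tissue store bound to heparin, had 0.92 and 3.88 in tumour, -3.94 and -3.47 in inflamed FCR liver, -3.72 in healthy Fah and -4.42 in normal FCR liver. It was well above background on all 6 arrays. The 2 tumour arrays were apart from the other 4, which lay within 0.95 of each other, and healthy Fah liver fell between the 2 inflamed arrays. Tumour was 6.10 higher than inflamed FCR liver (68.8-fold) and 6.12 higher than healthy Fah liver (69.8-fold). In bulk tissue, more cells of a type and more RNA per cell cannot be told apart, for this gene and the others.

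Cma1, the second chymase of connective tissue mast cells, had 0.83 and 3.40 in tumour, -3.14 and -2.63 in inflamed FCR liver, -4.38 in healthy Fah and -3.82 in normal FCR liver. The order of the groups was the same as for Cpa3 except for the 2 arrays of continuous NTBC. The second probe of Cma1 had -1.38 and 0.78 in tumour and was not well above background on the other 4 arrays, where it lay between -7.57 and -5.92. The 2 probes thus gave tumour minus inflamed differences of 5.002 and 5.864.

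Tpsb2, a tryptase that mast cells secrete as a tetramer, had -1.58 and 0.57 in tumour, -4.21 and -3.82 in inflamed FCR liver, -5.81 in healthy Fah and -5.65 in normal FCR liver. Here too both tumour arrays were highest, both inflamed arrays came next, and the 2 arrays of continuous NTBC were not well above background. Tumour was 3.52 higher than inflamed FCR liver (11.4-fold) and at least 24.5-fold higher than healthy Fah liver. Tpsg1, a tryptase anchored in the membrane, had -2.59 and -0.92 in tumour, -4.59 and -4.37 in inflamed FCR liver, -7.08 in healthy Fah and -7.49 in normal FCR liver. The 3 tiers of arrays did not overlap. Tumour was 2.73 higher than inflamed FCR liver (6.64-fold) and at least 10.3-fold higher than healthy Fah liver.

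The mucosal chymases were near background. Mcpt1 had -5.01 and -4.58 in tumour, -6.54 and -7.07 in inflamed FCR liver, -5.65 in healthy Fah and -5.68 in normal FCR liver, and only the tumour values were well above background. The arrays of continuous NTBC lay between the tumour and the inflamed arrays. Tumour was at least 1.96-fold higher than inflamed FCR liver and at least 1.25-fold higher than healthy Fah liver. Mcpt2 did not exceed background on any array, with values between -7.97 and -6.90. With normexp background correction, another way of removing background, the tumour minus inflamed difference was -0.20 for Mcpt1 and -0.41 for Mcpt2, so that neither direction held. The summed signal of the 4 connective tissue type genes, in units of the 75th percentile, was 5.54 and 33.4 in tumour, 0.253 and 0.366 in inflamed FCR liver, 0.148 in healthy Fah and 0.143 in normal FCR liver. That of the 2 mucosal type genes was 0.03943 and 0.04996 in tumour, 0.0147 and 0.0116 in inflamed FCR liver, 0.0261 in healthy Fah and 0.0242 in normal FCR liver. Levels of the 2 sums are not comparable with each other, since they come from different probes.

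Of the IgE receptor, Fcer1a encodes the alpha chain that binds IgE and Ms4a2 the beta chain that amplifies the signal. Fcer1a had -1.97 and 0.08 in tumour, -4.16 and -4.23 in inflamed FCR liver, -4.15 in healthy Fah and -3.96 in normal FCR liver. It was well above background on every array, and the 4 arrays outside tumour lay within 0.27 of each other. Tumour was 3.25 higher than inflamed FCR liver (9.52-fold) and 3.21 higher than healthy Fah liver (9.23-fold). Ms4a2 had -5.81 and -4.89 in tumour, where it was well above background, and -5.38 and -6.70 in inflamed FCR liver, -5.20 in healthy Fah and -5.44 in normal FCR liver, where it was not. Tumour replicate 1 was below 3 of the other arrays, so the groups overlapped.

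Hpgds, the synthase that makes prostaglandin D2 in mast cells and some other immune cells, had -3.28 and -2.69 in tumour, -4.15 and -5.18 in inflamed FCR liver, -7.31 in healthy Fah and -7.59 in normal FCR liver. Tumour and inflamed liver were closer for this gene than for the connective tissue proteases, and the 2 arrays of continuous NTBC were not well above background. Tumour was 1.68 higher than inflamed FCR liver (3.20-fold) and at least 4.39-fold higher than healthy Fah liver.

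Across the set, 9 of the 10 genes were well above background on each tumour array, 7 on each inflamed FCR array, 3 on the healthy Fah array and 3 on the normal FCR array. Of all spots, 71.79% and 74.46% were so on the tumour arrays and 68.15% and 69.77% on the inflamed FCR arrays. The share was 60.45% on the healthy Fah array and 64.38% on the normal FCR array. The level needed differed between arrays: Ms4a2 counted at -5.81 on tumour replicate 1, but not at -5.20 on the healthy Fah array. The counts were not corrected for this. Both tumour arrays were above the other 4 for 9 of the 10 genes, all but Ms4a2, where 11% of the 15382 tested genes had this order. Tested genes are those well above background on at least 2 arrays, and 9 of the 10 genes, all but Mcpt2, were among them. Of these 9, 8 had that order. The median tumour minus inflamed difference was 2.99 over the 10 genes, values near background included, and -0.13 over the tested genes, of which 0.215% passed limma's test at an adjusted p under 0.05. The median tumour minus healthy Fah difference was 4.82 over the 10 genes and -0.08 over the tested genes, of which 5.04% passed. With normexp background correction the medians were 1.40 against inflamed FCR and 1.38 against healthy Fah liver, and with the authors' deposited values 2.05 and 2.48. Sizes thus depended on how background was treated: against inflamed FCR liver normexp gave 4.35 for Cpa3, 4.61 for Mcpt4, 4.01 for Cma1, 2.11 for Tpsb2, 1.73 for Fcer1a, 1.07 for Tpsg1 and 0.49 for Hpgds, all in the same direction, but -0.45 for Ms4a2. Both comparisons share the tumour arrays that chose the genes, so the shares of all genes are given for scale only. The comparison named in the series' design sets the tumours against normal FCR liver and 2xoff/on inflamed FCR liver, and in it the median was 3.79 over the 10 genes and -0.15 over the tested genes.

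Between arrays of the same slide and regimen, tumour was above inflamed FCR liver for 9 of the 10 genes on slide 1 and for 10 of 10 on slide 2, against 39.2% and 48.2% of the tested genes. The 4 connective tissue type genes ranged from 2.63 to 6.22 on slide 1 (off) and from 4.40 to 7.36 on slide 2 (2xoff/on). A difference of more than 1 was reached by 8 of the 10 genes on slide 1, against 15.3% of the tested genes, and by 9 of 10 on slide 2, against 10.4%. Ms4a2 was the gene with the other sign on slide 1, at -0.43, and had 1.80 on slide 2. The counts of the 10 genes include Mcpt2 (1.08 and 0.98), which did not exceed background on any array and is not a tested gene.

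The 2 tumours differed from each other. Tumour replicate 2 was above replicate 1 by more than 1 for 6 of the 10 genes, against 12.5% of the tested genes: Cpa3 by 2.09, Mcpt4 by 2.97, Cma1 by 2.57, Tpsb2 by 2.15, Tpsg1 by 1.67 and Fcer1a by 2.05. Mcpt1 (0.43), Mcpt2 (-0.04), Ms4a2 (0.92) and Hpgds (0.59) differed by less. The median was 1.86 over the 10 genes and 0.06 over the tested genes. The same pair of regimens in FCR liver, replicate 2 minus replicate 1, passed 1 for Cpa3 alone (1.10), against 16.5% of the tested genes, with a median of 0.14 over the 10 genes. With 1 array for each regimen in each group these differences have no replicate check.

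**Figure D2:**
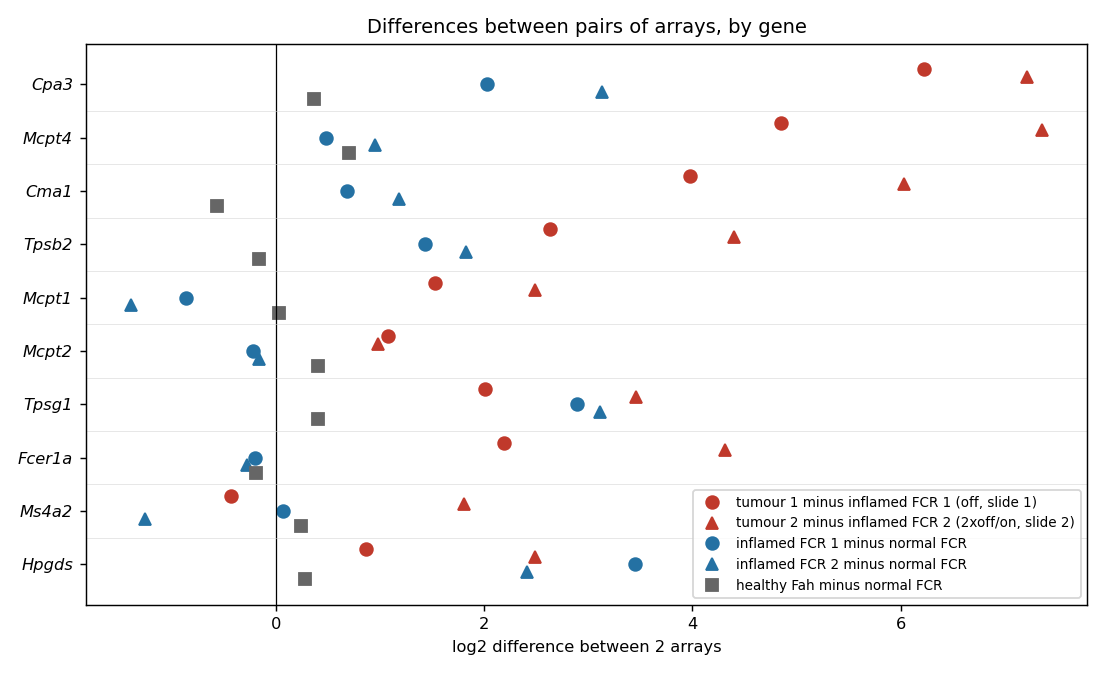
Log2 difference between 2 arrays (x axis) for each gene (y axis), with tumour minus inflamed FCR of the same regimen in red, inflamed FCR minus normal FCR in blue and healthy Fah minus normal FCR in grey, triangles marking the pairs that use a 2xoff/on array. The red points of Cpa3, Mcpt4, Cma1 and Tpsb2 lie between 2.63 and 7.36, and the grey points of all 10 genes lie between -0.57 and 0.70.

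Inflamed against normal FCR liver was the comparison that did not choose the genes. It asks whether the mast cell genes also differ where mature T, B and NK cells are lacking. Both inflamed arrays were above the normal array for 6 of the 10 genes (Cpa3, Mcpt4, Cma1, Tpsb2, Tpsg1 and Hpgds), against 35.4% of the tested genes. None of the 9 tested genes passed at an adjusted p under 0.05 in limma with Benjamini-Hochberg adjustment over all tested genes, where 1.76% passed in either direction and 1.55% as higher. At an unadjusted p under 0.05, 3 of the 9 passed, against 13.9% of the tested genes. Of the 9, Mcpt1 and Ms4a2 entered the test through the tumour arrays alone. They were not well above background on any FCR array, so their not passing says nothing. The median difference was 0.82 over the 10 genes and 0.04 over the tested genes. Over the 10 genes it was -0.07 with normexp background correction, 0.01 with the slide as a block, 0.31 with the authors' deposited values and 0.40 with values floored at a common level, so that its size rested on how background and slide were treated.

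Hpgds was 2.93 ± 0.91 (SE) higher in inflamed FCR liver (limma, unadjusted p = 0.01058, adjusted p = 0.1704), and Tpsg1 3.01 ± 0.94 higher (unadjusted p = 0.01109, adjusted p = 0.1739). Cpa3 was 2.58 ± 1.01 higher (unadjusted p = 0.03202, adjusted p = 0.2891). None of the 3 was well above background in normal FCR liver, and as lower bounds the inflamed livers were at least 1.80-fold higher for Hpgds, at least 2.03-fold for Tpsg1 and at least 1.38-fold for Cpa3. With the slide as a block, limma's adjusted p was 0.00628 for Hpgds and 0.02278 for Tpsg1, with the 3 FCR arrays only it was 0.04443 for Tpsg1, and with normexp background correction the differences were -0.07 for Hpgds, -0.06 for Cpa3 and 0.11 for Tpsg1. The fit with slide as a block had 1 residual degree of freedom, and many more of all tested genes passed in it than in the main fit. Tpsg1 had 0.79 with the authors' deposited values and 0.63 with floored values.

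Tpsb2 was 1.63 ± 0.97 higher in inflamed FCR liver (limma, adjusted p = 0.5376), but 0.07 with normexp background correction, 0.49 with the authors' deposited values and 1.10 with floored values. The chymases Cma1 (0.93 ± 1.00, adjusted p = 0.7987) and Mcpt4 (0.72 ± 1.09, adjusted p = 0.8741) and the receptor chain Fcer1a (-0.24 ± 0.93, adjusted p = 0.9632) differed by less than their standard errors in the same limma fit. Mcpt1 and Ms4a2 were not well above background in either FCR group and were given no fold. The residual spread of a gene in this fit comes from the tumour pair and the inflamed pair. The arrays of each pair also differ in slide and regimen. For Fcer1a the SD was 1.45 in tumour and 0.05 in inflamed FCR liver, and for Mcpt4 2.10 and 0.33. These standard errors are therefore not the spread of FCR livers alone. The single normal array is assumed to vary like the other groups, so a difference of the size of these standard errors was not detectable.

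Healthy Fah liver and normal FCR liver, 1 array each and both on continuous NTBC, were close for all 10 genes. The differences ranged from -0.57 (Cma1) to 0.70 (Mcpt4) with a median of 0.26, against -0.07 over the tested genes. None of the 10 genes was more than 1 higher in healthy Fah liver, against 3.02% of the tested genes. There is no replicate check for this comparison. Only Mcpt4, Cma1 and Fcer1a were well above background on both arrays.

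Mcpt4, Cma1, Mcpt1 and Mcpt2 belong to the cluster of chymase and granzyme genes on chromosome 14, which was looked at as a whole after the values of the 4 genes had been seen. In the RefSeq order of the 15 genes from Cma1 to Gzmb, the large differences did not form 1 block. Cma2, a second alpha-chymase gene next to Cma1, had -0.18 and 2.67 in tumour, -4.71 and -3.93 in inflamed FCR liver, -4.23 in healthy Fah and -4.42 in normal FCR liver, with tumour 5.56 above inflamed FCR liver. Mcpt1, Mcpt2 and Mcpt9 lie between Cma2 and Mcpt4, and Mcpt2 and Mcpt9, a chymase known from the mouse uterus, did not exceed background on any array. Next to Mcpt4, the basophil protease Mcpt8 was well above background in tumour replicate 2 only, at -4.77, and cathepsin G (Ctsg), a protease of neutrophils and mast cells, was 0.78 higher in tumour than in inflamed FCR liver. The 5 granzyme genes Gzme, Gzmd, Gzmg, Gzmn and Gzmf did not exceed background on any array, while Gzmb, a granzyme of cytotoxic cells, was 3.46 higher in tumour. Chymase genes are close in sequence, the probe sequences were not used here, and whether the probes of Cma1, Cma2 and Mcpt4 each bind 1 transcript only was not tested.

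**Figure D3:**
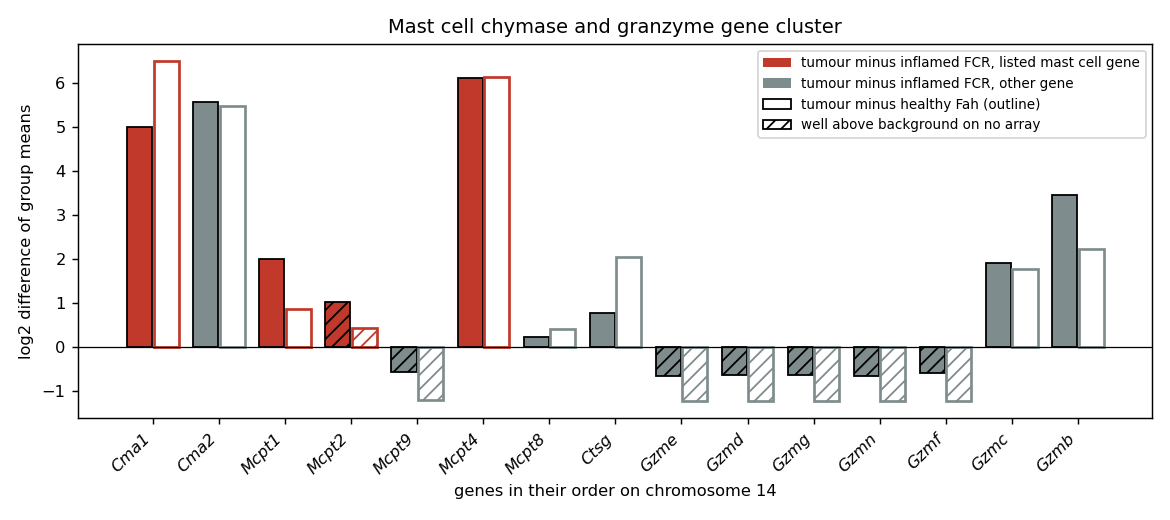
Log2 difference of group means (y axis) for the 15 genes from Cma1 to Gzmb in their order on chromosome 14 (x axis), with tumour minus inflamed FCR as filled bars and tumour minus healthy Fah as outlined bars, red for the 4 chymases of the set, hatched where all 6 arrays were near background. Cma1, Cma2 and Mcpt4 reach 5.002 to 6.10 against inflamed FCR, while the bar of Mcpt1 between them stands for at least 1.96-fold, and Mcpt2 and Mcpt9 were near background in both groups.

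On chromosome 17, Tpsb2 and Tpsg1 are neighbours in a group of tryptase-like genes. Prss34, a protease of basophils and mast cells, had -3.24 and -1.86 in tumour, -5.52 and -3.87 in inflamed FCR liver, -4.40 in healthy Fah and -4.50 in normal FCR liver. Tumour was above every other array for it as well, and 2.15 above inflamed FCR liver. Prss28 did not exceed background on any array, and Prss29 was 0.41 lower in tumour than in inflamed FCR liver.

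Genes of like pattern were sought among 5383 genes that were well above background on both tumour arrays and ranged over at least 2 across the arrays. The measure was Pearson's r over the 6 arrays, which is set mostly by the distance of the 2 tumour arrays from the rest. Within the set, r with Cpa3 was 0.97 for Mcpt4, 0.99 for Cma1 and Tpsb2, 0.96 for Tpsg1, 0.93 for Fcer1a, 0.89 for Hpgds, 0.63 for Mcpt1 and 0.15 for Ms4a2. Outside it, the genes nearest to Cpa3 were Erfe (0.991), Rab25 (0.985), Il1rl1 (0.985), Tenm4 (0.984) and Kcne2 (0.982). The genes nearest to Mcpt4 were Cma2 (0.997), Klrb1a (0.995), Xcl1 (0.995), Kcnip4 (0.988) and Mrgprb2 (0.985). Klrb1a is a receptor of NK cells and Xcl1 a chemokine of NK and T cells, while Mrgprb2 is a receptor of connective tissue mast cells in mice.

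Of those genes, Il1rl1 encodes ST2, the receptor through which IL-33 acts on mast cells and other immune cells. It had -1.61 and -0.88 in tumour, -5.47 and -4.86 in inflamed FCR liver, -5.81 in healthy Fah and -5.49 in normal FCR liver. Both tumour arrays were far above the rest, with tumour 3.91 above inflamed FCR liver and at least 14.6-fold above healthy Fah liver. Its other 2 probes, for another transcript accession, were well above background in tumour replicate 2 only, with tumour minus inflamed differences of 1.72 and 0.32. Mrgprb2, through which peptides and some drugs activate mast cells without IgE, had -3.63 and -2.84 in tumour and was not well above background on the other 4 arrays. Tumour was at least 5.77-fold higher than inflamed FCR liver and at least 3.69-fold higher than healthy Fah liver. The related receptor Mrgprb1 had -5.58 and -2.82 in tumour and was likewise near background elsewhere, and tumour was at least 2.96-fold higher than inflamed FCR liver.

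Other genes of mast cells were followed as 4 lists, of growth factors and regulators (13 listed, 12 with a probe), IgE receptor signalling (10 listed, 9 with a probe), granule and lipid mediators (14 listed, 13 with a probe) and surface receptors (6, all with a probe). Kit, the receptor of Kit ligand, Fyn and Tpsab1 are not analysed here. In tumour minus inflamed FCR liver, the comparison that chose the 10 genes, the medians of the 4 lists were 0.04, 0.46, 0.29 and 1.24 on the log2 scale, beside -0.13 over the tested genes, and are given as a description.

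Among the regulators, Il1rl1 (3.91) had the largest difference between tumour and inflamed FCR liver, and Tslp, which encodes an epithelial cytokine, was at least 1.35-fold higher in tumour. The Kit ligand gene Kitl (0.08), the alarmin gene Il33 (0.34) and the transcription factor Gata2 (0.89) differed less. Gata1 (-0.50) and Mitf (-0.48) of this list were below 0. Of its 12 genes with a probe, 7 were above 0, values near background included. Gata2 had -1.11 and -0.65 in tumour, -0.84 and -2.70 in inflamed FCR liver, -3.27 in healthy Fah and -2.99 in normal FCR liver, so that tumour and inflamed liver overlapped while both were above the arrays of continuous NTBC. Among the mediators, Cma2 (5.56), the amine transporter Slc18a2 (1.94), the serotonin synthesis enzyme Tph1 (1.92) and the leukotriene enzyme Alox5 (1.84) had the largest differences. Of the 13 mediators with a probe, 9 were above 0, values near background included, and Srgn had -0.82. Hdc, which makes histamine, had 0.23 and 1.17 in tumour, 1.95 and 1.18 in inflamed FCR liver, -0.98 in healthy Fah and -0.64 in normal FCR liver, with the tumour arrays at or below the inflamed ones. In the signalling list the kinase gene Syk was 1.00 higher in tumour. The phospholipase gene Plcg1 was 3.60 higher on slide 1, where inflamed FCR replicate 1 was near background for it, and had -0.15 on slide 2. Fcer1g, the gamma chain shared with other Fc receptors, had 2.47 and 3.94 in tumour, 3.81 and 3.29 in inflamed FCR liver, 0.73 in healthy Fah and 1.12 in normal FCR liver. For the gamma chain the tumour and inflamed arrays overlapped, both above continuous NTBC, whereas for Fcer1a the inflamed arrays lay with those of continuous NTBC.

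In inflamed minus normal FCR liver, 1 of these genes passed: Cd63, a granule membrane protein found in many cells, was 4.52 ± 0.58 (SE) higher (limma, adjusted p = 0.009044). None of the 9 growth regulators, 9 signalling genes and 12 mediators tested passed, nor any of the other 5 receptors, where 1.76% of all tested genes passed. At an unadjusted p under 0.05, 2 regulators, 3 signalling genes, 2 mediators and 2 receptors passed, against 13.9%. Tslp, Gab2, Mrgprb1 and Mrgprb2 entered the test through the tumour arrays alone. They were not well above background on any FCR array, so their not passing says nothing. The lists' medians were 0.57 for regulators, 1.02 for signalling, 0.90 for mediators and 0.83 for receptors, beside 0.04 over the tested genes. Plcg1, of the signalling list, ran the other way at -2.49 and did not pass, with inflamed replicate 1 near background for it. The regulators Il33 (2.33) and Mitf (2.26) and the receptor Ptger3 (at least 2.01-fold higher) did not pass either. Among those that did not pass, the differences were 2.78 for Alox5ap, which helps make leukotrienes (limma, adjusted p = 0.08795), 2.69 for the adaptor Lat2 (adjusted p = 0.193), 2.42 for Fcer1g (adjusted p = 0.1531) and 2.21 for Hdc (adjusted p = 0.1739).

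**Figure D4:**
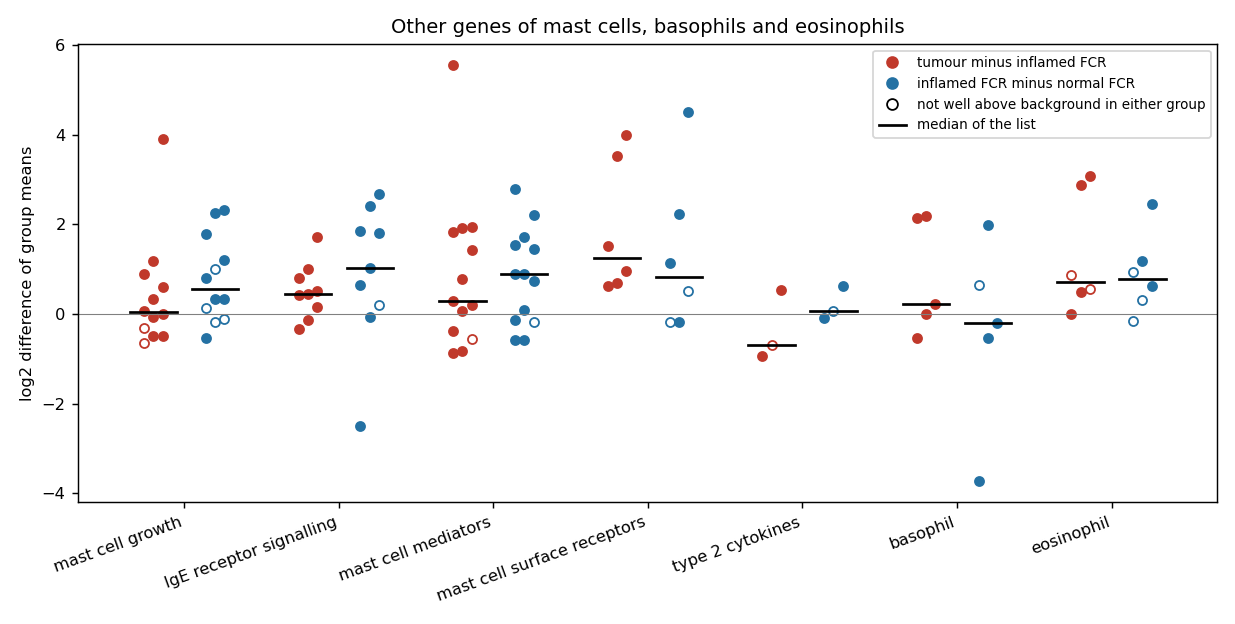
Log2 difference of group means (y axis) for the genes of 7 lists (x axis), tumour minus inflamed FCR in red and inflamed FCR minus normal FCR in blue, each point a gene, open where it was not well above background in either group, with a black line at the list's median. In the 4 mast cell lists the red medians lie between 0.04 and 1.24, with Cma2 and Il1rl1 above 3. The points of Mrgprb2 and Mrgprb1 are set against values near background and stand for at least 5.77-fold and at least 2.96-fold.

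Markers of other cells moved beside these genes. Of the basophil list, Mcpt8 was well above background on 1 array, tumour replicate 2, and the list's summed signal was 1.33 and 3.08 in tumour, 1.24 and 2.63 in inflamed FCR liver, 1.39 in healthy Fah and 2.83 in normal FCR liver. Most of this sum came from 1 gene, Il3ra, a cytokine receptor chain, which had 0.16 and 1.41 in tumour, 0.26 and 1.31 in inflamed FCR liver, 0.40 in healthy Fah and 1.33 in normal FCR liver, so that the sum says little of the rest of the list. Prss34, of the same list, was highest on both tumour arrays, as given above. Cd200r3, a receptor of basophils and mast cells, had -3.37 and -3.45 in tumour and -6.44 and -4.78 in inflamed FCR liver. It had -7.26 in healthy Fah and -1.88 in normal FCR liver, so that the normal FCR array was highest for this probe. The other probe of Cd200r3 had -5.86 and -4.49 in tumour and was not well above background on any other array, with -7.80 in normal FCR liver. The 2 probes thus gave different orders of the groups. Of the eosinophil list, Siglecf was 3.08 higher in tumour than in inflamed FCR liver and Prg2 at least 3.41-fold higher. Inflamed replicate 2 was not well above background for Siglecf, at -6.69, while replicate 1 had -4.80, so that the size of its difference is uncertain. Ear6 (0.50) and Ccr3 (-6e-04) overlapped between tumour and inflamed FCR liver. Epx, which defines eosinophils, did not exceed background on any array. The eosinophil sum was 0.436 and 0.674 in tumour, 0.767 and 0.154 in inflamed FCR liver, 0.138 in healthy Fah and 0.149 in normal FCR liver. Of the type 2 cytokines, which T cells, innate lymphoid cells and mast cells make, Il5 did not exceed background on any array, Il4 lay between -5.57 and -4.62, and Il13 was 0.94 lower in tumour than in inflamed FCR liver. The part of basophils or eosinophils in the values of Cpa3 and Fcer1a was not tested.

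The NK and cytotoxic list, whose cells FCR mice lack, had 8 and 7 of its 8 measured genes well above background in tumour, 2 and 4 in inflamed FCR liver, 2 in healthy Fah and 1 in normal FCR liver. Its median was 2.22 in tumour minus inflamed FCR liver. Eomes, a transcription factor of NK and cytotoxic T cells, ran the other way, with -5.93 and -3.97 in tumour, -0.97 and -0.32 in inflamed FCR liver, -7.21 in healthy Fah and -7.59 in normal FCR liver. It was the 1 gene of the 7 tested that passed in inflamed minus normal FCR liver, where it was at least 29.1-fold higher (limma, adjusted p = 0.01424). Ncr1, Gzma and Prf1 entered the test through the tumour arrays alone, so their not passing says nothing. The T cell list had 9 of 9 in both tumours, 6 and 6 in inflamed FCR liver, 7 in healthy Fah and 6 in normal FCR liver. Since 60.5% to 74.5% of all spots on an array were well above background, such counts alone do not show these cells. In tumour minus inflamed FCR liver, 7 of the 9 T cell genes were above 0, while Cd3e (-0.33) and Cd4 (-0.44) were below. Among those above, Cd8a was at least 8.01-fold higher, Cd3g at least 3.19-fold higher and Lck 2.55 higher. The median of the T cell list was 1.44, beside -0.13 over the tested genes. The B and plasma cell list had a median of 2.05, with all 6 genes above 0, from 0.12 to 6.27 (Jchain). Fibroblast genes, of the connective tissue in which such mast cells lie, summed to 190.0 and 201.9 in tumour, 121.5 and 83.8 in inflamed FCR liver, 31.7 in healthy Fah and 33.8 in normal FCR liver. The largest part of this sum on each array came from 1 gene, Dcn. In tumour replicate 2 minus replicate 1, Dcn had 0.82, whereas Col1a1 had -1.85 and Col3a1 -1.08. Hepatocyte genes summed to 827 and 742 in tumour, 1318 and 1105 in inflamed FCR liver, 2394 in healthy Fah and 2360 in normal FCR liver. The neutrophil list had 3 of 5 tested genes higher in inflamed than in normal FCR liver in limma, S100a8, S100a9 and Retnlg, against 1.55% of all tested genes. The part of any of these cells in the differences of the mast cell genes was not tested.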

How the data were processed

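Per the file headers, the arrays were read by Agilent Feature Extraction 10.7.3.1; the submitters' processing notes name 10.5. The deposited scanner files hold the processed signal intensity of each of 43379 spots, from which that software had taken off the background per the file headers, with no scaling from array to array. The series table deposited by the authors holds log2 values with column medians of 6.455 to 6.479. Across probes they followed each array's median spot signal (log2) with r between 0.9971 and 0.9996, by a scaling not given in the sources used here.

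Control and outlier spots were left out, spots of a probe were averaged, and the log2 processed signal was set relative to the 75th percentile of its array. No spot was saturated. Accessions were matched to RefSeq names (GRCm38.p6 table), with no use of its positions other than gene order since the array design is on another build: 26912 of 41145 probes were named. For genes with several probes the one with the highest mean was used.

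Genes that exceeded background on at least 2 arrays entered two-sided tests by lmFit and trended eBayes of limma 3.58.1 (R 4.3.3) over all 6 arrays with 4 group means and 2 residual degrees of freedom, with Benjamini-Hochberg adjustment at 0.05. The steps were tested on simulated data. The genes, the lists, the tests and the alternatives were chosen with earlier results of these data known. The text names all 10 genes, Gata2, Hdc and Mcpt8, the 5 nearest in pattern to Cpa3 and to Mcpt4, and Fah, Rag2 and Il2rg. Of each other list, up to 4 genes with the largest differences were planned, which was not kept for every list. The macrophage and endothelium lists were measured but are not described. The cluster on chromosome 14, the neighbours on chromosome 17 and genes named for small or opposite values were added after values were seen. Promoter windows were aligned globally (match 1, mismatch -1, gap opening -4, gap extension -0.5).

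Alternatives were normexp background correction (offset 50), the array median, quantile normalization, no filter, a filter of at least 4 arrays, the mean of a gene's probes, values floored at a common level, the authors' series table, slide as a block, eBayes without a trend, the 3 FCR arrays only, and leaving out each array of a pair.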

Additional observations from a re-analysis of the deposited data

Results flagged for a closer look

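Fcer1a had opposite signs in the 2 strains when withdrawal was set against continuous NTBC: by 3.21 on the log2 scale in Fah (tumour minus healthy liver) and by -0.24 in FCR (inflamed minus normal liver), with both arrays of each strain on that side. Mcpt1 did likewise, by 0.86 in Fah and by -1.13 in FCR, where it was not well above background on any FCR array. Mcpt2 had 0.43 in Fah and -0.19 in FCR, all of it below background. With normexp background correction Mcpt1 had -0.62 in Fah and -0.41 in FCR, and Mcpt2 -0.85 and -0.43, so their opposite signs were lost. Fcer1a kept them, at 1.62 and -0.21. Its difference of -0.24 in FCR was smaller than its standard error of 0.93 in limma, so that its sign there was not resolved. The differences between the strains were not tested, and strain and tumour tissue cannot be told apart.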

How the results depend on the processing

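In inflamed minus normal FCR liver, 270 of all tested genes passed, and the count was 120 with quantile normalization, 159 with no filter, 54 with the authors' table, 1893 with slide as a block, 531 with the 3 FCR arrays only, and 436 to 1734 with 1 array left out: leaving out tumour replicate 1 gave 504, tumour replicate 2 436, inflamed replicate 1 441, and inflamed replicate 2 1734. With values floored at a common level 0 passed in limma, and 1834 at an unadjusted p under 0.05. Of the mast cell genes, 0 passed, but 2 with slide as a block (Hpgds at 3.04 and Tpsg1 at 2.53) and 1 with the 3 FCR arrays only (Tpsg1, adjusted p = 0.04443). The median tumour minus inflamed difference was 1.40 with normexp and 2.05 with the authors' table, against 2.99. The median tumour minus healthy Fah difference was 1.38 with normexp, 3.28 with floored values and 2.48 with the authors' table, against 4.82. The sign turned with normexp for Mcpt1 (-0.20 against inflamed, -0.62 against healthy) and Mcpt2 (-0.41 and -0.85) in tumour, for Ms4a2 in tumour minus inflamed (-0.45), and for Cpa3 (-0.065) and Hpgds (-0.073) in inflamed minus normal FCR liver. Mcpt2 in healthy Fah minus normal FCR liver had -0.0023 with quantile normalization and -0.085 with the authors' table, Mcpt4 in inflamed minus normal FCR liver had -0.14 with slide as a block, and Ms4a2 there ranged from -1.26 to 0.064 with 1 inflamed array left out, 0.064 being without replicate 2. The causes were not tested. The count of genes with both tumour arrays above the other 4, added after seeing the data, was 9 as reported, 6 with normexp, and 8 to 10 otherwise. The labels give no replicate numbers, so the arrays were paired by slide only, in the slide block given here. The median inflamed minus normal FCR difference, 0.82, was -0.07 with normexp, 0.011 with slide as a block, 0.31 with the authors' table and 0.40 with floored values, and that of healthy Fah minus normal FCR liver, 0.26, turned to -0.0036 with normexp, -0.016 with quantile normalization and -0.12 with the authors' table. Signal over background limits Mcpt1, Mcpt2 and Ms4a2.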
